A study of Citrullus lanatus with 30 samples.

Results

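Flesh of watermelon (Citrullus lanatus) from the mutant labelled clnor was compared with wild type (WT) flesh at 10 days after pollination (DAP), before ripening is visible. The comparison rests on 6 of the 30 libraries of the study, 3 of clnor at 10 DAP and 3 of WT at 10 DAP. It covers the 15116 of 22596 listed genes that reached 1 TPM in at least 3 of these 6 libraries. The other libraries come from the same 2 genotypes at 18, 26, 34 and 42 DAP and were used for the shared estimate of spread and for asking what became of each early difference. The labels give no allele, background variety or number of fruits for either genotype, and nothing in them tells if the replicates were different fruits. The p-values therefore reflect only how far the 30 libraries scatter within their groups, part of which may be technical.

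NOR, the name behind clnor, is known from tomato, where it is a NAC transcription factor whose mutants fail to ripen. Young cucurbit flesh is a tissue in which cells first divide and then enlarge, often while copying their DNA again without dividing. Cells that copy DNA make origin proteins, the replicative helicase, the sliding clamp and new histones, and cells that enlarge remodel their walls. None of the gene descriptions mentions NOR, so the mutated gene was not looked at as such.

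Values are TPM (transcript abundance in the authors' table), which is scaled for gene length and for the size of the library. TPM keeps no read number, so the depth behind each value is unknown. Differences are clnor minus WT on the log2(TPM + 1) scale, which understates the change of genes at low level, and are given with their standard error (SE). A gene was called where limma's test had a Benjamini-Hochberg adjusted p below 0.05. RNA of a whole tissue was measured, so fewer cells of a type and less RNA per cell cannot be told apart.

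The clnor libraries were less alike than the WT libraries. The median SD of a gene was 0.31 (log2) among the 3 clnor libraries and 0.195 among the 3 WT libraries. The value for clnor at 10 DAP was the highest of the 10 groups, the others lying between 0.16 and 0.297. The spread shared over all groups may therefore be too small for these libraries, and with it the SE and p-values at 10 DAP. Over the tested genes clnor replicate 1 correlated best with the mean of WT at 10 DAP (r = 0.968, against 0.95 with the other clnor libraries at that age). For clnor replicate 3 the best match was clnor at 18 DAP (r = 0.965, against 0.926 with its own group). Both r values run over genes, and genes do not count as replicates. The remaining 4 libraries were nearest to their own group. TPM sums were 981206 to 983328, and 14740 to 15065 genes per library reached 1 TPM. The counts for the main gene lists are therefore also given without clnor replicate 1 or 3.

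Of the 15116 genes 83 were called at 10 DAP (0.549%), 43 higher in clnor (0.284%) and 40 lower (0.265%). In 82 of the 83 the 3 clnor libraries all lay on one side of the 3 WT libraries. Without clnor replicate 1 the count was 301 (1.99%), and without clnor replicate 2 it was 17 (0.112%). It was 46 (0.304%) without clnor replicate 3, 51 (0.337%) without WT replicate 1, 17 (0.112%) without WT replicate 2 and 41 (0.271%) without WT replicate 3. A fit of the 6 libraries alone, with 4 residual degrees of freedom, called 0 genes by limma. In that fit 1276 genes had an unadjusted p below 0.05, where 756 would be expected by chance alone. All 83 calls kept their sign in each of these fits. The 82 genes without overlap could not change sign in them, so this adds no support. Of the 83, 8 genes reached 1 TPM in clnor only and 3 in WT only, and these had to differ to be tested. In 34 of the 43 genes called higher, clnor replicate 1 was the lowest of the clnor libraries. The median difference over all tested genes was 0.0137.

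**Figure D1:**
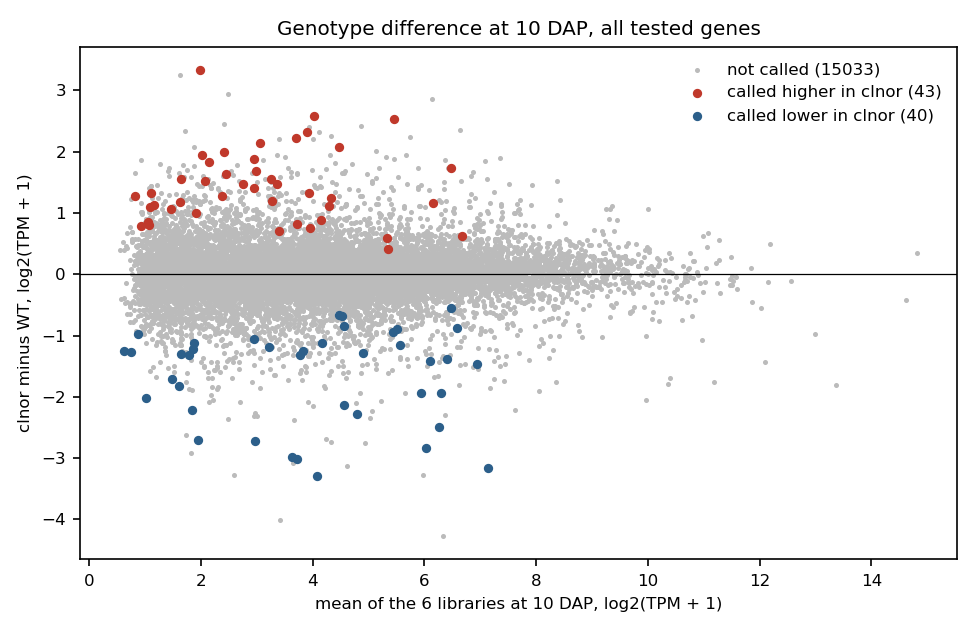
Each point is 1 tested gene, with its mean over the 6 libraries at 10 DAP on the x axis and the clnor minus WT difference on the y axis, both on the log2(TPM + 1) scale. The 43 genes called higher in clnor (red) and the 40 called lower (blue) lie at low and middle levels, and uncalled genes (grey) reach differences as large.

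Genes that copy DNA stood higher in clnor. This list was split and widened after values had been seen, so its counts describe these data and are no independent test. Of 52 tested genes of DNA replication 5 were called higher and 0 lower, against 0.284% higher over all genes. In 25 of the 52 all 3 clnor libraries lay above all 3 WT libraries, and in 1 they lay below, where 7.47% and 5.95% of all tested genes did. The median difference of the 52 was 0.51, and over all 62 genes matched to the list it was 0.5. Without clnor replicate 1 it was 0.64 with 11 genes called higher (1.17% over all genes), and without clnor replicate 3 it was 0.51 with 1 called higher (0.152% over all genes). Without clnor replicate 2 the median was 0.41 and 0 genes were called higher (0.0331% over all genes).

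The origin of replication complex subunit 6 gene (Cla97C11G214640), part of the complex that marks where copying starts, had 3.9, 10.88 and 9.14 TPM in clnor replicates 1 to 3, against 0.86, 1.78 and 1.48 TPM in WT. The lowest clnor library lay above the highest WT library, and the difference was 1.84 ± 0.32 (SE, limma adjusted p = 0.0102). This call was lost without clnor replicate 2 (adjusted p = 0.0666) and held in the other 5 leave-one-out fits. Cell division control protein 45 homolog (Cla97C09G171600), a subunit of the replicative helicase, had 2.36, 3.52 and 3.15 TPM in clnor, against 0.86, 1.02 and 0.81 TPM in WT. It rose by 1.07 ± 0.22 (limma adjusted p = 0.0244).

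A replication protein A subunit (Cla97C06G125140), which coats single-stranded DNA at the fork, had 8.21, 19.32 and 16 TPM in clnor, against 2.53, 3.82 and 2.78 TPM in WT (difference 1.88 ± 0.37, limma adjusted p = 0.0191). Proliferating cell nuclear antigen (PCNA, Cla97C02G045800), the clamp that holds the polymerase on DNA, had 6.39, 15.9 and 15.06 TPM in clnor, against 3.53, 4 and 3.78 TPM in WT. Its difference was 1.4 ± 0.28 (limma adjusted p = 0.0191). The timeless homolog (Cla97C01G000810), which guards stalled forks, had 3.53, 8.8 and 7.19 TPM in clnor, against 1.4, 1.65 and 1.42 TPM in WT (difference 1.52 ± 0.34, limma adjusted p = 0.0354). In each of these genes clnor replicate 1 was nearest to WT. CDC45, replication protein A, PCNA and timeless were called without clnor replicate 1, and in none of the other 5 leave-one-out fits, where their adjusted p ran from 0.0579 to 0.174.

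Ribonucleoside-diphosphate reductase (Cla97C01G014770), which makes the building blocks of DNA, had 16.43, 42.29 and 30.39 TPM in clnor, against 9.13, 10.33 and 9.31 TPM in WT. The groups did not overlap, but its difference of 1.44 ± 0.34 missed the threshold (limma adjusted p = 0.0525). It was chosen after its values were seen. Exonuclease 1 (Cla97C03G058510), a DNA repair nuclease outside the list and also chosen after its values were seen, was low in both genotypes. It had 1.58, 2.72 and 2.16 TPM in clnor, against 0.49, 0.48 and 0.41 TPM in WT (difference 1.1 ± 0.18). It was tested only because all 3 clnor libraries reached 1 TPM, which no WT library did, so that a difference was built into its selection.

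Histone genes, whose products wrap new DNA, mostly stood above WT. Their list too was split and widened after values had been seen. Of 34 tested histone genes 1 was called higher and 0 lower (0.284% and 0.265% over all genes). In 19 of the 34 the clnor libraries all lay above WT, against 0 in which they lay below (7.47% and 5.95% over all genes). Their median difference was 0.59, and 0.54 over all 36 genes matched, of which 1 tested gene reached 1 TPM in clnor only. Without clnor replicate 1 the median was 0.71 with 5 genes called higher (1.17% over all genes), and without clnor replicate 3 it was 0.55 with 0 called higher (0.152%). Near-identical histone copies share reads, and how the authors split them is not stated in the labels.

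The called member, a histone H2A gene (Cla97C09G169230), had 10.37, 27.29 and 15.76 TPM in clnor, against 5.09, 2.91 and 1.66 TPM in WT. It rose by 2.14 ± 0.45 (limma adjusted p = 0.0243), and the call was lost in 4 leave-one-out fits, with an adjusted p of up to 0.151 without clnor replicate 2. A histone H4 gene (Cla97C03G053190) was far more abundant, at 195.38, 261.07 and 225.6 TPM in clnor, against 110.31, 135.07 and 114.68 TPM in WT. All 3 clnor libraries lay above the other 27 libraries of the study, and the difference of 0.91 ± 0.22 missed the threshold (limma adjusted p = 0.0585). A histone H3.2 gene (Cla97C08G147470), chosen after its values were seen, had 22.59, 35.76 and 21.54 TPM in clnor, against 6.56, 11.81 and 9.24 TPM in WT (difference 1.43 ± 0.35, limma adjusted p = 0.0641).

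Of 106 genes of cyclins and mitosis 1 was called higher and 0 lower (0.284% and 0.265% over all genes), and the median was 0.0846. It was -0.0692 without clnor replicate 3. The search words of this list were also rewritten after values had been seen. The called gene was cyclin-A3-2-like (Cla97C08G159930), of a cyclin class active while DNA is copied. It had 17.88, 38.97 and 28.97 TPM in clnor, against 5.47, 4.62 and 5 TPM in WT. All 3 clnor libraries lay above every other library of the series, the highest of which held 15.72 TPM. The difference was 2.23 ± 0.44 (limma adjusted p = 0.0195), and the call held without clnor replicate 1 (adjusted p = 0.00868) and was lost in the other 5 leave-one-out fits, where it ran up to 0.116.

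A histone-lysine N-methyltransferase (Cla97C11G223160), an enzyme that marks histones, had 6.37, 13.76 and 7.07 TPM in clnor, against 2.09, 2.19 and 2 TPM in WT, where the 3 libraries were almost equal. It rose by 1.63 ± 0.26 (limma adjusted p = 0.00519) and was called in all 6 leave-one-out fits. The following 4 were chosen after their values were seen. A histone chaperone (Cla97C01G006300), which carries histones to DNA, had 10.35, 18.46 and 18.5 TPM in clnor, against 4.87, 5.39 and 3.55 TPM in WT (difference 1.55 ± 0.35, limma adjusted p = 0.0375). The H3 lysine-36 specific methyltransferase (Cla97C07G131200) had 14.68, 23.68 and 34.9 TPM in clnor, against 7.43, 9.47 and 9.06 TPM in WT (difference 1.32 ± 0.3, limma adjusted p = 0.0454). Both were called without clnor replicate 1 and in no other leave-one-out fit.

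A gene described as DNA (cytosine-5)-methyltransferase 3 (Cla97C03G064170) had 10.02, 21.36 and 11.92 TPM in clnor, against 6.55, 4.86 and 4.93 TPM in WT. It rose by 1.2 ± 0.26 (limma adjusted p = 0.0331) and kept its call in 2 of 6 leave-one-out fits. High mobility group B protein 1 (Cla97C02G035200), a DNA-bending protein, lay near the detection limit, with 1.48, 3.11 and 1.05 TPM in clnor, against 0.28, 0.15 and 0 TPM in WT. It too reached 1 TPM in clnor only, and its difference of 1.28 ± 0.25 is given as a description. Without clnor replicate 2 the adjusted p of the methyltransferase was 0.177.

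**Figure D2:**
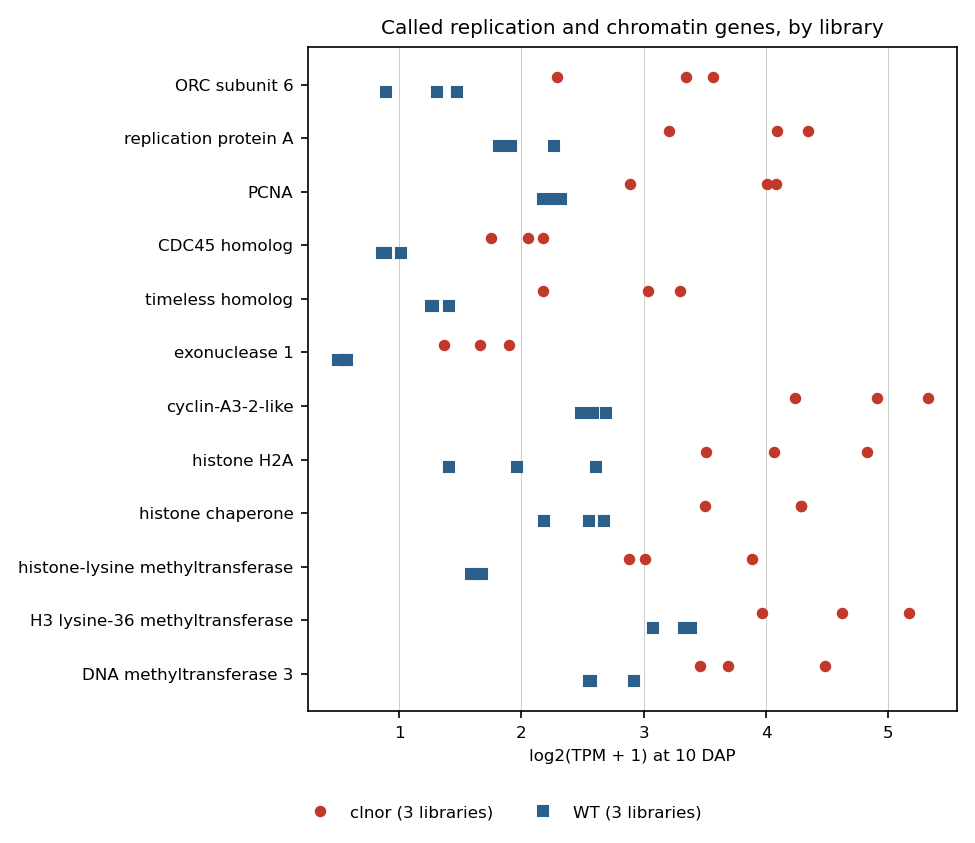
Levels at 10 DAP of 12 called genes of replication and chromatin, with 1 point per library on the log2(TPM + 1) scale, clnor (red circles) above WT (blue squares) within each row. No clnor library overlaps WT in any row (exonuclease 1 reached 1 TPM in clnor only, which let it be tested). The lowest red point is clnor replicate 1 for ORC subunit 6 (3.9 TPM), PCNA (6.39 TPM) and the timeless homolog (3.53 TPM).

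The level of the replication genes was then followed across the series. The mean of log2(TPM + 1) over the 52 genes was 3.35, 3.9 and 3.74 in clnor at 10 DAP, against 3.03, 3.13 and 2.99 in WT. The groups overlapped at 18 DAP (3.29, 3.48 and 3.38 in clnor, against 3.53, 3.31 and 3.19 in WT). By 42 DAP the order was reversed, with 3.03, 3.08 and 2.99 in clnor, against 3.76, 3.94 and 3.89 in WT. The median difference of the list was 0.51 at 10 DAP, -0.00377 at 18 DAP, -0.27 at 26 DAP, -0.24 at 34 DAP and -0.57 at 42 DAP. No member was called at 18 DAP by limma, where 3 had an unadjusted p below 0.05, all with clnor higher (13.2% over all genes). At 26 DAP 3 were called higher (10% over all genes) and 8 lower (5.82%). The count for 34 DAP was 5 higher (28.8% over all genes) and 14 lower (12.1%). For ORC subunit 6 (Cla97C11G214640) and PCNA (Cla97C02G045800) the difference itself changed, by -1.97 in each case from 10 to 42 DAP (limma adjusted p = 0.00353 and 0.00117). That contrast contains the same 10 DAP difference by which both genes were called.

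Histone means were lower at later ages in both genotypes. They were 6.4, 6.78 and 6.49 in clnor at 10 DAP, against 5.87, 6.05 and 5.75 in WT, and 5.84, 5.94 and 5.67 in clnor at 18 DAP, against 6.03, 5.58 and 5.61 in WT. The 3 clnor means lay above the 3 WT means at 10 DAP and overlapped them at 18, 26, 34 and 42 DAP. Whether the list's difference changed with age was not tested, and for histone H4 (Cla97C03G053190) the difference was 0.91 at 10 DAP and 0.96 at 34 DAP, where it was called (limma adjusted p = 0.00129). At 34 DAP 9 of the 34 genes were called higher and 3 lower, shares close to those over all genes (28.8% and 12.1%).

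**Figure D3:**
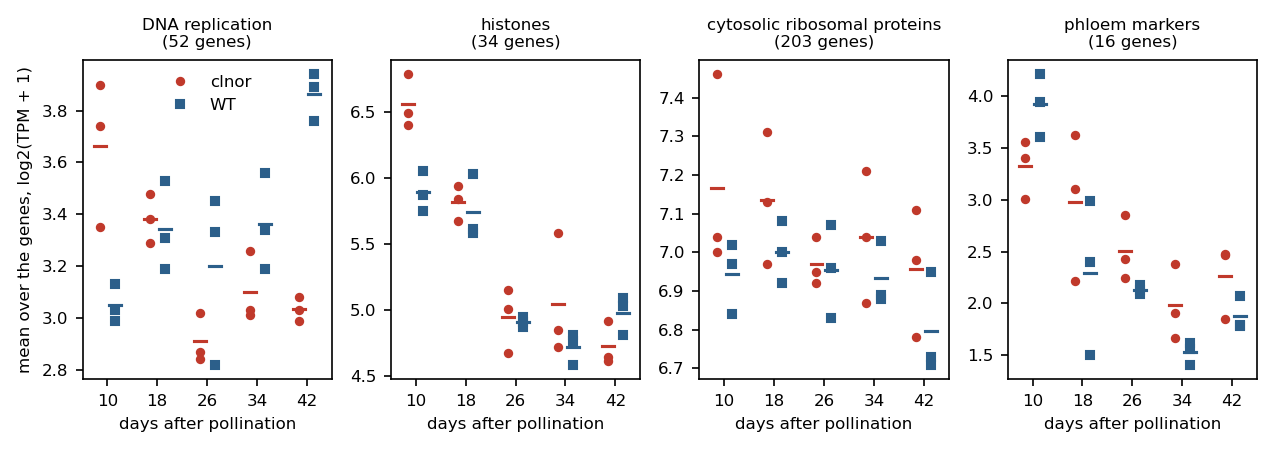
Mean log2(TPM + 1) over the tested genes of 4 lists (y axis, a scale of its own in each panel) at each age in days after pollination (x axis), with 1 point per library, clnor (red) left of WT (blue) and bars at group means. At 10 DAP the clnor points lie above WT for DNA replication and histones, 1 clnor library (7.46) stands apart for ribosomal proteins, and all clnor points lie below WT for phloem markers.

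Cytosolic ribosomal protein genes differed mainly through 1 library. Of 203 genes of the cytosolic ribosome 0 were called in either direction by limma, where 35 had an unadjusted p below 0.05 with clnor higher (5.89% over all genes) and 3 with clnor lower (5.14%). Their median difference was 0.24, with 180 of the 203 above 0. In 39 the clnor libraries all lay above WT (7.47% over all genes) and in 5 below (5.95%). By list mean, clnor had 7.04, 7 and 7.46 in replicates 1 to 3, against 7.02, 6.97 and 6.84 in WT, so that replicates 1 and 2 lay next to the highest WT library. Without clnor replicate 3 the median difference was 0.0794. Of 101 organellar ribosomal protein genes 0 were called by limma, with 7 higher and 0 lower at an unadjusted p below 0.05. Their median was 0.14, and 0.104 without clnor replicate 3. In 10 of the 101 the clnor libraries all lay above WT and in 0 below (7.47% and 5.95% over all genes).

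The other lists held few calls, where 0.549% of all genes were called. Of 172 heat shock and chaperone genes, 43 WRKY, 24 MADS-box, 12 bHLH and 79 cytochrome P450 genes, 0 were called. The same count was found for 29 genes of ethylene, 42 of cytokinin, 24 of jasmonate, 25 of carotenoids, 37 of sugar transport, 29 of sugar metabolism and 70 of phenylpropanoids and lignin. Medians of these lists ran from -0.152 for WRKY to 0.119 for cytokinin. At an unadjusted p below 0.05 stood 12 higher and 7 lower heat shock and chaperone genes, and 3 higher and 9 lower cytochrome P450 genes. Sugar metabolism had 1 higher and 4 lower of 29, and carotenoids 1 and 3 of 25. Over all genes 1668 (11%) passed that level, 5.89% higher and 5.14% lower.

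**Figure D4:**
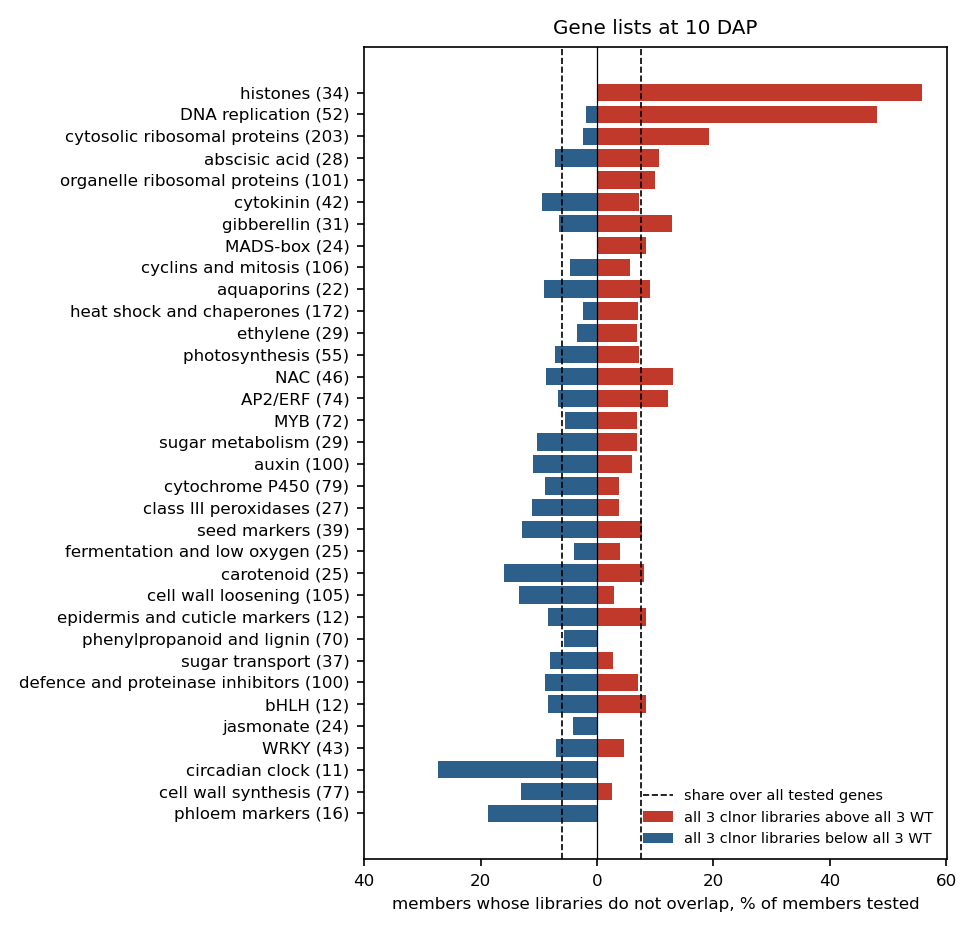
For each list with at least 10 tested genes (number in brackets), the bars give the percentage of members whose 3 clnor libraries all lie above (red, right) or all below (blue, left) the 3 WT libraries at 10 DAP, in the order of the median difference. Dashed lines mark 7.47% above and 5.95% below over all tested genes. The lists for replication, cyclins and histones were split and widened after values had been seen. Histones (19 of 34) and DNA replication (25 of 52) have the longest bars to the right, and the clock (3 of 11) the longest to the left.

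Wall genes were called in both directions. Xyloglucan endotransglucosylase/hydrolases cut and rejoin the xyloglucan chains that tie cellulose together. The gene Cla97C03G053880 of this family had 5.81, 7.12 and 20.83 TPM in clnor, against 1.29, 1.64 and 2.15 TPM in WT (difference 2 ± 0.41, limma adjusted p = 0.0242). The family member Cla97C05G107400 went the other way, with 6.83, 2.17 and 2.43 TPM in clnor, against 53.53, 53.7 and 12.96 TPM in WT (difference -2.98 ± 0.67, limma adjusted p = 0.0395). The first call held only without clnor replicate 1, with an adjusted p of up to 0.132 in the other leave-one-out fits. The second held in 2 of 6 and reached 0.212 without WT replicate 2.

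A beta-D-xylosidase (Cla97C08G153880), which trims wall polysaccharides, had 5.53, 6.33 and 3.96 TPM in clnor, against 17.35, 12.96 and 9.97 TPM in WT. It fell by 1.19 on the log2 scale (SE 0.19, limma adjusted p = 0.00519) and was called in all 6 leave-one-out fits. A pectin methylesterase inhibitor-like gene (Cla97C05G089170), whose product slows the removal of methyl groups from pectin, had 7.44, 3.36 and 1.67 TPM in clnor, against 39.16, 62.89 and 18.94 TPM in WT. It had the smallest p among the falls (difference -3.01 ± 0.35, limma adjusted p = 8.89e-05) and also kept its call in all 6. At 18 DAP it averaged 0.603 TPM in clnor and 0.06 TPM in WT. At 34 DAP, with 1.7 TPM in clnor and 0.11 TPM in WT, the order was the opposite (difference 1.26, limma adjusted p = 0.00603). The list of wall loosening genes as a whole had 1 called higher and 2 lower of 105 (0.284% and 0.265% over all genes). Its median was -0.105, and 0.0749 without clnor replicate 1. In 14 of the 105 the clnor libraries all lay below WT (5.95% over all genes) and in 3 above (7.47%).

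Of 77 wall synthesis genes 0 were called higher and 1 lower (0.284% and 0.265% over all genes), and the median was -0.25. In 10 of the 77 the clnor libraries all lay below WT (5.95% over all genes) and in 2 above (7.47%). The called gene was REDUCED WALL ACETYLATION 3-like (Cla97C01G024310), named for the acetylation of wall polysaccharides. It had 16.37, 17.85 and 17.25 TPM in clnor, against 24.21, 33.95 and 26.81 TPM in WT. The clnor libraries were almost equal (difference -0.68 ± 0.14, limma adjusted p = 0.024), and the adjusted p reached 0.181 without WT replicate 2. Without clnor replicate 1 the list median was -0.103 with 2 called lower (0.82% over all genes). An alpha-(1,6)-fucosyltransferase (Cla97C11G216760) and a hexosyltransferase (Cla97C09G171410), both chosen after their values were seen, were also lower. The fucosyltransferase had 18.71, 15.18 and 21.07 TPM in clnor, against 29.82, 79.31 and 40.78 TPM in WT (difference -1.29 ± 0.26, limma adjusted p = 0.0223). The hexosyltransferase had 67.09, 49.9 and 40.25 TPM in clnor, against 150.66, 173.56 and 94.06 TPM in WT (difference -1.38 ± 0.31, limma adjusted p = 0.0451). Without WT replicate 2 the adjusted p was 0.16 for the fucosyltransferase and 0.226 for the hexosyltransferase.

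Of 27 class III peroxidases, which cross-link or loosen wall polymers, 0 were called higher and 2 lower (0.284% and 0.265% over all genes). The list median was -0.0621, and 0.0984 without clnor replicate 1. Peroxidase Cla97C01G005010 had 1.78, 0.97 and 0.89 TPM in clnor, against 3.67, 4.02 and 5.86 TPM in WT. Peroxidase Cla97C02G049930 had 8.26, 10.07 and 5.32 TPM in clnor, against 37.74, 18.02 and 12.71 TPM in WT. Each differed by -1.32 (limma adjusted p = 0.0221 and 0.048), and each kept its call in 2 of 6 leave-one-out fits. The adjusted p reached 0.116 without clnor replicate 2 for Cla97C01G005010, and 0.213 without WT replicate 1 for Cla97C02G049930.

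An aquaporin (Cla97C10G203070), a water channel, had 120.07, 16.31 and 5.84 TPM in clnor, against 188.66, 184.71 and 147.95 TPM in WT. The clnor libraries spread widely, and the difference of -2.84 ± 0.64 (limma adjusted p = 0.0435) was called only without clnor replicate 1 among the leave-one-out fits, reaching 0.187 without clnor replicate 3. It was the 1 call among 22 aquaporins (0.265% lower over all genes), whose median difference was 0.0294. A carboxypeptidase (Cla97C07G143300), which removes residues from protein ends, had 18.25, 4.64 and 0.46 TPM in clnor, against 34.05, 102.1 and 40.49 TPM in WT (difference -3.3 ± 0.57, limma adjusted p = 0.0102). That call was lost only without WT replicate 2 (adjusted p = 0.0837).

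A cysteine proteinase (Cla97C05G101870) had 34.18, 42.87 and 18.7 TPM in clnor, against 114.46, 149.18 and 98.86 TPM in WT (difference -1.94 ± 0.36, limma adjusted p = 0.0132). A cysteine proteinase inhibitor (Cla97C02G032490) had 0.58, 1.21 and 0 TPM in clnor, against 37.87, 5.75 and 2.71 TPM in WT, where 1 library was far above the others. Its difference was -2.71 ± 0.53 (limma adjusted p = 0.0191). UDP-glycosyltransferase 1 (Cla97C02G033370), which attaches sugars to small molecules, had 5.16, 1.59 and 0.78 TPM in clnor, against 16.2, 18.88 and 23.07 TPM in WT (difference -2.73 ± 0.49, limma adjusted p = 0.0124). These 3 calls held in 3 or 4 of 6 leave-one-out fits. Their highest adjusted p was 0.0989 without WT replicate 2 for the proteinase, 0.0852 without clnor replicate 3 for the inhibitor and 0.0658 without clnor replicate 2 for the glycosyltransferase.

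A RING1-like ubiquitin ligase (Cla97C10G204500) had 0, 0 and 3.64 TPM in clnor, against 4.79, 11.61 and 5.4 TPM in WT. The difference was -2.22 ± 0.42 (limma adjusted p = 0.0143), and 4 of 6 leave-one-out fits kept it. A DUF1005 family gene (Cla97C11G220950), of undescribed function, had 31.26, 11.96 and 3.84 TPM in clnor, against 73.35, 68.55 and 43.87 TPM in WT (difference -2.28 ± 0.49, limma adjusted p = 0.0321). Its clnor values were widely spread, and the call held only without clnor replicate 1 (adjusted p = 0.00156). Without WT replicate 2 the adjusted p was 0.117 for the ligase and 0.149 for the DUF1005 gene.

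Among genes of fermentation and low oxygen 0 of 25 were called higher and 1 lower (0.284% and 0.265% over all genes). Pyruvate decarboxylase 2-like (Cla97C10G205630), which turns pyruvate into acetaldehyde, had 78.63, 33.9 and 36.65 TPM in clnor, against 296.14, 434.58 and 575.98 TPM in WT. The highest clnor library lay far below the lowest WT library (difference -3.16 ± 0.65, limma adjusted p = 0.0239). The call was lost in 4 leave-one-out fits, with an adjusted p of 0.116 without clnor replicate 2. Non-symbiotic hemoglobin 2 (Cla97C05G103160), a scavenger of nitric oxide, had 40.77, 72.66 and 55.95 TPM in clnor, against 12.6, 27.05 and 19.58 TPM in WT, a difference of 1.49 ± 0.38 that missed the threshold (limma adjusted p = 0.0718).

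Hormone genes gave single calls, where 0.284% of all genes were called higher and 0.265% lower. A gibberellin-regulated family gene (Cla97C01G016400), encoding a small secreted peptide, had 6.84, 10.28 and 21.56 TPM in clnor, against 0, 0.96 and 0 TPM in WT. It was the 1 call among 31 gibberellin genes (difference 3.33 ± 0.62), and it was tested only because clnor reached 1 TPM, so the call is no result for the list. Gibberellin-regulated protein 5 (Cla97C01G009030), of the same family, had the opposite order, with 0, 0.8 and 2.51 TPM in clnor, against 11, 6.03 and 2.82 TPM in WT. Its difference of -1.89 ± 0.46 was not called (limma adjusted p = 0.0615).

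An abscisic acid receptor (Cla97C11G212910) had 103.49, 95.63 and 119.42 TPM in clnor, against 39.18, 42.61 and 60.06 TPM in WT. It was the 1 call among 28 abscisic acid genes (difference 1.17 ± 0.25, limma adjusted p = 0.0262; 0.146 without WT replicate 2). Of 100 auxin genes 1 was called higher and 1 lower (0.284% and 0.265% over all genes). An auxin-responsive family gene (Cla97C05G108540) had 5.92, 14.52 and 3.65 TPM in clnor, against 1.48, 1 and 0.77 TPM in WT (difference 1.94 ± 0.31, limma adjusted p = 0.00519), and was called in all 6 leave-one-out fits. An auxin response factor (Cla97C08G150270), a transcription factor that auxin acts through, had 4.52, 4.29 and 4.23 TPM in clnor, against 10.98, 11.57 and 8.05 TPM in WT. It fell by 1.05 (SE 0.2, limma adjusted p = 0.0132), with an adjusted p of 0.1 without WT replicate 2.

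Among transcription factors, 1 of 46 NAC genes was called, and it was lower (0.265% lower over all genes). This NAC gene (Cla97C10G190580) had 102.95, 71.69 and 53.51 TPM in clnor, against 151.74, 214.79 and 258.99 TPM in WT (difference -1.46 ± 0.27, limma adjusted p = 0.0132; 0.0837 without WT replicate 2). NAC domain-containing protein 72-like (Cla97C11G224420) had the opposite order, with 11.6, 16.62 and 22.44 TPM in clnor, against 2.84, 1.57 and 4.85 TPM in WT. Its difference of 2.16 ± 0.56 missed the threshold (limma adjusted p = 0.0771).

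A GATA factor (Cla97C08G150290) had 90.16, 30.77 and 10.71 TPM in clnor, against 223.95, 223.22 and 117.52 TPM in WT (difference -2.49 ± 0.52, limma adjusted p = 0.0244; 0.145 without WT replicate 2). The 1 call among 74 AP2/ERF genes was an ethylene-responsive transcription factor (Cla97C04G071960), with 1.3, 0.57 and 0.19 TPM in clnor, against 2.85, 4.51 and 7.88 TPM in WT. Its difference was -1.82 ± 0.4 (limma adjusted p = 0.0339; 0.147 without WT replicate 3). Beside this call and the next, 0.265% of all genes were called lower. The 1 call among 72 MYB genes (Cla97C04G076110) had 0.52, 0.1 and 1.2 TPM in clnor, against 6.43, 6.8 and 1.23 TPM in WT. The highest clnor library lay just under the lowest WT library, and the difference was -1.71 ± 0.32 (limma adjusted p = 0.0142; 0.117 without WT replicate 2).

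Regulators of unclear role in flesh were also higher. A homeobox leucine zipper gene (Cla97C09G166050), chosen after its values were seen, had 24.67, 36.35 and 30.18 TPM in clnor, against 14.37, 10.22 and 11.88 TPM in WT (difference 1.25 ± 0.26, limma adjusted p = 0.0262). A gene described as a senescence regulator (Cla97C03G055910) had 64.93, 116.38 and 152.22 TPM in clnor, against 17.76, 12.2 and 24.11 TPM in WT (difference 2.53 ± 0.58, limma adjusted p = 0.0454). An SH3 domain-binding protein (Cla97C00G000160) had 30.73, 64.76 and 43.99 TPM in clnor, against 9.96, 9.6 and 9.88 TPM in WT (difference 2.07 ± 0.43, limma adjusted p = 0.0242). The clnor libraries of all 3 genes lay well above WT, yet their calls held in at most 2 of 6 leave-one-out fits, with an adjusted p of up to 0.218 for the senescence regulator without WT replicate 2. An F-box family gene (Cla97C10G185130), whose product picks proteins for degradation, had 11.32, 13.22 and 15.47 TPM in clnor, against 3.36, 3.81 and 3.15 TPM in WT (difference 1.68 ± 0.28, limma adjusted p = 0.00808), and was called in all 6.

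A gene described as an envelope glycoprotein (Cla97C11G208120) had 44.9, 29.17 and 25.33 TPM in clnor, against 3.92, 6.06 and 7.37 TPM in WT. It had the only call that was lost in all 6 leave-one-out fits (difference 2.32 ± 0.53, limma adjusted p = 0.0454 in the full fit, and 0.0765 to 0.152 with a library left out). A UPF0301 gene (Cla97C11G211380) had 2.78, 9.85 and 2.75 TPM in clnor, against 1.64, 0.44 and 0.6 TPM in WT (difference 1.55 ± 0.36, limma adjusted p = 0.0496; 0.236 without clnor replicate 2). A chlorophyll a-b binding protein (Cla97C08G159510), which gathers light, was the 1 call among 55 photosynthesis genes (0.284% higher over all genes). It had 23.12, 38.73 and 23.46 TPM in clnor, against 11.82, 11.31 and 13.72 TPM in WT (difference 1.11 ± 0.21, limma adjusted p = 0.0132; 0.0994 without clnor replicate 2).

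In 3 of 11 clock genes the clnor libraries all lay below WT (5.95% over all genes), and 1 was called lower (0.265% over all genes). EARLY FLOWERING 4-like (Cla97C07G132630), an evening gene of the clock, had 14.26, 21.57 and 3.14 TPM in clnor, against 36.54, 72.12 and 43.65 TPM in WT (difference -2.14 ± 0.44, limma adjusted p = 0.0223; 0.156 without WT replicate 2). GIGANTEA-like (Cla97C08G150060), which peaks late in the day in Arabidopsis, had 30.7, 37.02 and 27.26 TPM in clnor, against 54.17, 43.54 and 60.65 TPM in WT (limma adjusted p = 0.151). The flavin-binding kelch domain F box gene (Cla97C07G133850), a light sensor of the evening clock chosen after its values were seen, had 80.51, 72.08 and 30.77 TPM in clnor, against 106.49, 120.97 and 109.93 TPM in WT (limma adjusted p = 0.355). In these 3 genes every clnor library lay below WT. The morning gene LHY (Cla97C06G111640), chosen after its values were seen, had 27.18, 24.39 and 154.52 TPM in clnor, against 30.26, 24.86 and 34.17 TPM in WT. Replicate 3 of clnor stood apart there, and it was the lowest of the 6 libraries for the 3 genes before. Without it the LHY difference was -0.19, against 0.66 with it (limma adjusted p = 0.915 and 0.696). The hour of sampling is not given in the labels, and its part in these values was not tested.

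Markers of other cell types were read beside these results. Of 16 phloem markers 0 were called by limma, 6 were lower at an unadjusted p below 0.05 (5.14% over all genes), their median difference was -0.54, and 13 of 16 lay below 0. A sieve element occlusion B-like gene (Cla97C06G116280), whose product forms filaments in sieve tubes, had 0.98, 1 and 0.3 TPM in clnor, against 3.78, 1.7 and 1.85 TPM in WT (difference -0.95 ± 0.24, limma adjusted p = 0.0683). Summed TPM of the phloem list overlapped between genotypes, at 434 to 676 in clnor, against 466 to 876 in WT, and 2 of its 22 genes were at 0 in all 6 libraries. At 18 DAP the list median was 0.78, of the opposite sign.

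Seed markers summed to 2140 to 2930 TPM in clnor, against 2970 to 4000 TPM in WT, and 26 of 85 were at 0 in all 6 libraries. Of the 39 tested, 1 was called higher and 0 lower (0.284% and 0.265% over all genes). Oil body-associated protein 1A-like (Cla97C09G172070), named for the lipid bodies of seeds, had 31.74, 59.35 and 31.49 TPM in clnor, against 3.69, 5.46 and 8.69 TPM in WT. It had the smallest p of all genes (difference 2.59 ± 0.25, limma adjusted p = 4.5e-06), was called in all 6 leave-one-out fits, and lay above the other 27 libraries of the study in each clnor library.

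The seed list as a whole went both ways, with 18 of the 39 above 0, 21 below and a median difference of -0.0658. In 3 of the 39 all clnor libraries lay above WT and in 5 below (7.47% and 5.95% over all genes). Among the members below 0, an 11S globulin gene (Cla97C05G092030), which encodes a seed storage protein and was chosen after its values were seen, had 5.01, 0.7 and 0.83 TPM in clnor, against 14.28, 67.52 and 74.53 TPM in WT (difference -4.02 ± 1.46, limma adjusted p = 0.255). A late embryogenesis abundant gene (Cla97C08G159660) had 33.22, 14.26 and 5.94 TPM in clnor, against 112.08, 84.76 and 37.8 TPM in WT (difference -2.23 ± 0.55, limma adjusted p = 0.0648). The part of seed tissue in the results on replication, histones and oil body genes was not tested. The epidermis and cuticle markers summed to 294 to 391 TPM in clnor, against 318 to 378 TPM in WT, and the 2 xylem markers to 1.21 to 1.92 TPM in clnor, against 1.73 to 3.96 TPM in WT.

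Calls at the later ages were set beside the early calls. Called genes numbered 83 at 10 DAP, 355 (2.35%) at 18 DAP, 2398 (15.9%) at 26 DAP, 6178 (40.9%) at 34 DAP and 5040 (33.3%) at 42 DAP, over the genes tested at 10 DAP. Of the 83 early calls 28 were called in the same direction at a later age, 16 in the opposite direction at a later age, and 39 at no later age. In the same direction there were 13 at 18 DAP, 16 at 26 DAP, 19 at 34 DAP and 17 at 42 DAP. In the opposite direction there were 1, 3, 11 and 12 at these ages. Of the 43 early rises, 2 were higher at 26 DAP (10% over all genes) and 9 at 34 DAP (28.8%). Of the 40 early falls, 14 were lower at 26 DAP (5.82% over all genes) and 10 at 34 DAP (12.1%). Whether early calls recurred more often than other genes was not tested.

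The genes called in the same direction at all 5 ages numbered 7, of which 1 was higher in clnor. Argonaute 10 (Cla97C05G085880), which in Arabidopsis binds a microRNA family and helps keep stem cells, had 113.68, 182.54 and 198.5 TPM in clnor at 10 DAP, against 58.99, 35.86 and 50.88 TPM in WT (difference 1.73 ± 0.3, limma adjusted p = 0.0102). The difference was 1.34 at 18 DAP, 1.75 at 26 DAP, 2.63 at 34 DAP and 1.85 at 42 DAP. Means were lower from 26 DAP on in both genotypes. At 42 DAP clnor averaged 45.7 TPM, against 11.9 TPM for WT. The early call was lost without clnor replicate 2 (adjusted p = 0.0576) and without WT replicate 2 (0.0791).

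The other 6 genes, pyruvate decarboxylase 2-like and the NAC gene above among them, were lower throughout. Pyruvate decarboxylase 2-like (Cla97C10G205630) had 37.69, 50.6 and 803.75 TPM in clnor at 18 DAP, against 2164.57, 2499.95 and 1895.62 TPM in WT, so that 1 clnor library stood far above the others. It averaged 436 TPM in clnor and 1850 TPM in WT at 42 DAP. The clnor mean at 42 DAP equalled the WT mean at 10 DAP, which was also 436 TPM. The NAC gene (Cla97C10G190580) averaged 107 TPM in clnor and 634 TPM in WT at 26 DAP, when its difference was largest at -2.55 (limma adjusted p = 2.63e-06).

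Serine/threonine protein kinase 1 (Cla97C06G113640) had 59.62, 22.82 and 43.64 TPM in clnor at 10 DAP, against 74.42, 255.64 and 186.44 TPM in WT (difference -1.94 ± 0.42, limma adjusted p = 0.0334; 0.218 without WT replicate 2). At 42 DAP it averaged 52.1 TPM in clnor and 1280 TPM in WT, and the difference had changed by -2.74 (limma adjusted p = 0.00244). A dehydrogenase/reductase (Cla97C05G095170) had 70.43, 34.5 and 28.48 TPM in clnor at 10 DAP, against 98.97, 127.93 and 107.75 TPM in WT (difference -1.41 ± 0.29, limma adjusted p = 0.0223; 0.131 without WT replicate 2). Its clnor mean stayed between 41.4 and 50.1 TPM at all ages, while the WT mean reached 433 TPM at 42 DAP.

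Phytol kinase 1 (Cla97C08G150750), which recycles phytol from chlorophyll toward vitamin E, had 11.18, 5.41 and 8.91 TPM in clnor at 10 DAP, against 15.05, 29.6 and 20.05 TPM in WT. The difference was -1.25 ± 0.29 (limma adjusted p = 0.0468; 0.281 without WT replicate 2), and -2.37 at 42 DAP. The bifunctional 3-dehydroquinate dehydratase/shikimate dehydrogenase (Cla97C02G027300), of the pathway to aromatic amino acids, had 69.69, 63.31 and 77.7 TPM in clnor, against 114.03, 119.56 and 156.99 TPM in WT. It fell by 0.87 at 10 DAP (SE 0.18, limma adjusted p = 0.0225; 0.116 without clnor replicate 2) and by 2.22 at 42 DAP, and that change was itself called (-1.35, limma adjusted p = 0.000722).

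Other early differences turned round. The senescence regulator (Cla97C03G055910) averaged 111 TPM in clnor and 18 TPM in WT at 10 DAP, and 35.8 TPM in clnor and 217 TPM in WT at 42 DAP, so that its difference of 2.53 became -2.67. The abscisic acid receptor (Cla97C11G212910) averaged 72.8 TPM in clnor and 169 TPM in WT at 42 DAP (difference -1.21, limma adjusted p = 0.000583). The SH3 domain-binding gene (Cla97C00G000160) averaged 8.24 TPM in clnor and 65 TPM in WT at 42 DAP (difference -2.92, limma adjusted p = 1.84e-05). All 3 genes were higher in clnor at 10 DAP.

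The reverse turn was seen in a regulatory protein of pyruvate, phosphate dikinase (Cla97C03G056170), which switches that enzyme on and off and was chosen after its values were seen. It had 17.11, 18.74 and 13.84 TPM in clnor at 10 DAP, against 23.13, 36.2 and 33.89 TPM in WT (difference -0.85 ± 0.15, limma adjusted p = 0.0102; 0.0837 without WT replicate 2). At 18 DAP it averaged 10.2 TPM in clnor and 6.16 TPM in WT, and at 42 DAP 69.3 TPM in clnor and 28.5 TPM in WT. The change of the difference was called at each later age and was 1.51 by 18 DAP (limma adjusted p = 0.00218). It contains the 10 DAP difference by which the gene was called. Over all genes the difference changed in 4 (0.0265%) between 10 and 18 DAP, in 610 (4.04%) by 26 DAP, in 3785 (25%) by 34 DAP and in 3003 (19.9%) by 42 DAP. A phosphatase 2C gene (Cla97C10G200400), also chosen after its values were seen, had 33.93, 28.03 and 30.6 TPM in clnor at 10 DAP, against 74.12, 73.08 and 62.06 TPM in WT (difference -1.15 ± 0.21, limma adjusted p = 0.0132; 0.0837 without WT replicate 2), and its difference was 0.11 at 42 DAP.

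**Figure D5:**
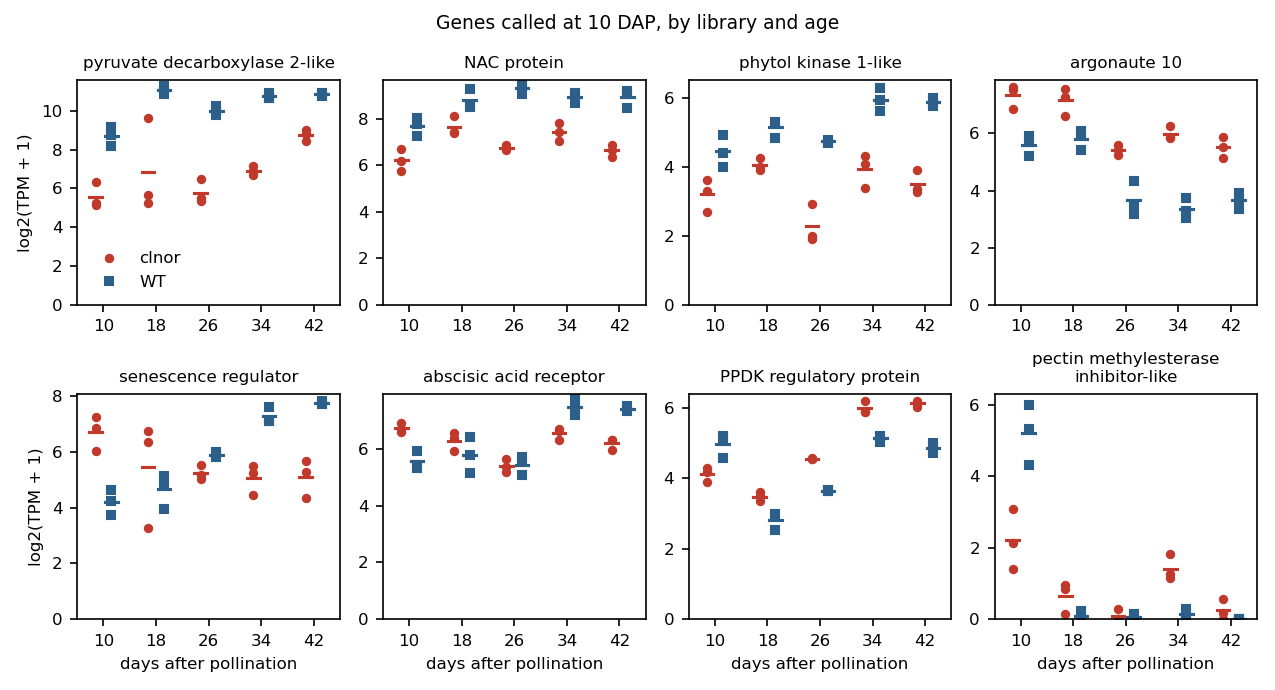
Levels of 8 genes called at 10 DAP, as log2(TPM + 1) in each library (y axis) at each age in days after pollination (x axis), clnor (red) left of WT (blue), with bars at group means. Pyruvate decarboxylase 2-like, the NAC gene and phytol kinase 1 stay lower and argonaute 10 stays higher in clnor, the senescence regulator, the abscisic acid receptor and the dikinase regulatory protein change order, and the pectin methylesterase inhibitor-like gene lies near 0 in WT after 10 DAP.

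Genes of ripening were read at this early age too. Phytoene synthase (Cla97C01G008760), the first enzyme of carotenoid synthesis, had 25.75, 14.29 and 13.99 TPM in clnor, against 26.14, 32.46 and 47.9 TPM in WT. The highest clnor library lay just under the lowest WT library, and the difference of -0.95 ± 0.37 was not called (limma adjusted p = 0.305). It was called from 18 DAP on (-1.91, limma adjusted p = 0.0157). For the 200 genes with the largest rise in WT between 18 and 34 DAP, the median difference at 10 DAP was -0.087, with 2 called higher and 4 lower, where 0.284% and 0.265% of all genes were. Their mean of log2(TPM + 1) was 4.16, 4.05 and 3.36 in clnor replicates 1 to 3, against 3.89, 3.96 and 4.06 in WT, so clnor replicate 3 alone was low. For the 200 genes with the largest fall the means were 5.04, 5.38 and 6.34 in clnor, against 5.43, 5.53 and 5.38 in WT, and 0 were called. Replicate 3 of clnor lay above the clnor mean at 18 DAP for these genes, which was 5.92.

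Some genes were listed at 0 in all libraries of one genotype and at 1 TPM or more in all of the other. There were 3 listed at 0 in WT and 2 in clnor. Arabinogalactan peptide 22-like (Cla97C07G141780), a small wall glycoprotein, had 6.08, 6.4 and 15.63 TPM in clnor and was listed at 0 in the 3 WT libraries, and it was not called. The genes listed at 0 in clnor have no described function. Cla97C04G071160 had 1.97, 2.17 and 6.1 TPM in WT, and Cla97C07G134540 had 1.16, 1.8 and 1.28 TPM in WT. Both were called lower, but genes picked in this way had to differ, so no test is given for them. The other 2 genes listed at 0 in WT are also undescribed and were not called.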

How the data were processed

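RNA of watermelon flesh was sequenced in 30 libraries, 3 per genotype and age. The authors deposited TPM per gene and library for 22596 genes, each with a description that is unknown for 2976. Per the submitters' processing notes, TopHat2 and HISAT2 and also StringTie and Cufflinks took part, with no version or order stated. The genome build and read numbers are not stated either, so the depth per library and the precision it gives are unknown.

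Values entered the tests as log2(TPM + 1). A gene was tested (15116) where 3 or more of the 6 libraries at 10 DAP held 1 TPM or more, and the other 7480 were left out as too low. A gene that passed only through the genotype where it is high had to differ. A single model of all 30 libraries in 10 groups was made in limma 3.58.1 with R 4.3.3 and statmod 1.5.0, using eBayes with trend and robust, which leaves 20 residual degrees of freedom. Tests were two-sided, with Benjamini-Hochberg adjustment inside each contrast. An exact permutation test of 3 against 3 libraries cannot go below 0.1 and was not used.

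The comparison, the 35 gene lists and the tests were chosen with earlier results of these data known. Lists were matched to descriptions by search words. These were rewritten, and those for replication, cyclins and histones split and widened, after values had been seen. The rule for named genes takes 15 rises and 15 falls by size from called, described, non-overlapping genes that averaged 5 TPM or more in the higher genotype. Added to these are called list members, the 2 members with the smallest p of each list (only those of lists described), genes called at all ages, phytoene synthase and genes listed at 0. Genes outside this rule are marked as chosen after their values were seen.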

Additional observations from a re-analysis of the deposited data

Results flagged for a closer look

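The difference between clnor and WT was itself tested for change with age by limma's interaction contrasts. Most genes described above passed at some later age. Each contrast subtracts the same 10 DAP difference by which most of these genes were picked. A shift back toward 0 is therefore partly built in, and such changes are no independent evidence that an early difference faded. Over all genes the clnor minus WT difference changed between 10 DAP and 18 DAP in 4 genes, by 26 DAP in 610, by 34 DAP in 3785 and by 42 DAP in 3003 (adjusted p below 0.05). For each named gene that passed, the largest change (log2, later age minus 10 DAP) among the ages that passed is given.

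The following genes of replication and chromatin changed downward between 10 and 42 DAP. The histone-lysine N-methyltransferase (Cla97C11G223160, -0.62, adjusted p = 0.242) and histone H4 (Cla97C03G053190, -0.73, adjusted p = 0.1) did not pass, and no other age passed for them. The change was -1.97 for the origin of replication complex subunit 6 gene (Cla97C11G214640), -2.66 for replication protein A (Cla97C06G125140), -1.97 for PCNA (Cla97C02G045800) and -1.08 for CDC45 (Cla97C09G171600). It was -3.08 for timeless (Cla97C01G000810), -1.56 for ribonucleoside-diphosphate reductase (Cla97C01G014770), -2.54 for cyclin-A3-2-like (Cla97C08G159930) and -2.53 for histone H2A (Cla97C09G169230). It was -1.46 for histone H3.2 (Cla97C08G147470), -3.74 for the histone chaperone (Cla97C01G006300), -1.98 for exonuclease 1 (Cla97C03G058510) and -1.54 for the H3 lysine-36 methyltransferase (Cla97C07G131200). It was -1.23 for DNA methyltransferase 3 (Cla97C03G064170) and -1.35 for high mobility group B protein 1 (Cla97C02G035200).

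Other genes higher in clnor at 10 DAP also changed downward. By 42 DAP the change was -5.19 for the senescence regulator (Cla97C03G055910), -4.99 for the SH3 domain-binding gene (Cla97C00G000160) and -3.2 for the homeobox leucine zipper gene (Cla97C09G166050). It was -2.76 for the F-box gene (Cla97C10G185130), -2.53 for the oil body-associated gene (Cla97C09G172070), -2.38 for the abscisic acid receptor (Cla97C11G212910) and -1.59 for the UPF0301 gene (Cla97C11G211380). It was -4.1 for arabinogalactan peptide 22-like (Cla97C07G141780) and -2.27 for non-symbiotic hemoglobin 2 (Cla97C05G103160), neither of which was called at 10 DAP. The gibberellin-regulated family gene (Cla97C01G016400) changed by -3.33 by 34 DAP, and the auxin-responsive gene (Cla97C05G108540) by -1.58 by 26 DAP. LHY (Cla97C06G111640), which overlapped WT and was not called at 10 DAP, changed by -2.67 by 34 DAP.

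Genes lower at 10 DAP whose difference widened were serine/threonine protein kinase 1 (Cla97C06G113640, -2.74 by 42 DAP), the dehydrogenase/reductase (Cla97C05G095170, -1.86 by 42 DAP), the 3-dehydroquinate dehydratase/shikimate dehydrogenase (Cla97C02G027300, -1.39 by 26 DAP) and phytoene synthase (Cla97C01G008760, -2.31 by 34 DAP).

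Other genes lower at 10 DAP changed upward. No change passed at any later age for pyruvate decarboxylase 2-like (Cla97C10G205630), the NAC gene (Cla97C10G190580), phytol kinase 1 (Cla97C08G150750), the fucosyltransferase (Cla97C11G216760), the auxin response factor (Cla97C08G150270) and the 11S globulin gene (Cla97C05G092030). By 42 DAP the change was 4.72 for the xyloglucan gene Cla97C05G107400, 3.02 for the GATA factor (Cla97C08G150290), 1.99 for peroxidase Cla97C01G005010 and 2.11 for the dikinase regulatory protein (Cla97C03G056170). It was 1.26 for phosphatase 2C (Cla97C10G200400), 0.59 for REDUCED WALL ACETYLATION 3-like (Cla97C01G024310) and 1.72 for GIGANTEA-like (Cla97C08G150060). By 34 DAP it was 4.26 for the pectin methylesterase inhibitor-like gene (Cla97C05G089170), 3.7 for the aquaporin (Cla97C10G203070), 3.15 for the carboxypeptidase (Cla97C07G143300) and 3.34 for UDP-glycosyltransferase 1 (Cla97C02G033370). At that age it was 3.77 for EARLY FLOWERING 4-like (Cla97C07G132630), 3.02 for the flavin-binding F box gene (Cla97C07G133850), 3.43 for the cysteine proteinase (Cla97C05G101870) and 2.37 for the DUF1005 gene (Cla97C11G220950). It was 1.74 for the hexosyltransferase (Cla97C09G171410), 1.45 for peroxidase Cla97C02G049930, 1.27 for the beta-D-xylosidase (Cla97C08G153880) and 0.93 for the sieve element occlusion gene (Cla97C06G116280). It was 3.02 for the ethylene-responsive factor (Cla97C04G071960), 2.04 for the MYB gene (Cla97C04G076110), 3.06 for the late embryogenesis abundant gene (Cla97C08G159660) and 2.02 for Cla97C04G071160. By 26 DAP it was 2.94 for the cysteine proteinase inhibitor (Cla97C02G032490), 2.74 for the RING1-like ligase (Cla97C10G204500), 2.64 for gibberellin-regulated protein 5 (Cla97C01G009030) and 1.79 for Cla97C07G134540.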

How the results depend on the processing

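The count of genes called at 10 DAP (83, of which 43 higher and 40 lower) depended on nearly every choice. It was 31 (12 higher, 19 lower) with a pseudocount of 0.1 and 55 (27 higher) with 0.5. It was 125 (65 lower) with no filter on low values and 41 (20 higher, 21 lower) with a filter at 5 TPM. Quantile normalization gave 237 (130 higher, 107 lower), and upper-quartile scaling 108 (48 higher, 60 lower). The 6 libraries alone gave 0 higher and 0 lower, with a smallest adjusted p of 0.152. Weights per group, added after the data were seen, gave 45 (24 higher, 21 lower). Leaving out 1 library gave 17 to 301 calls, 5 to 177 of them higher and 7 to 124 lower, and 7 of the 83 calls held in all 6 such fits. All 83 kept their sign under each alternative that tested them. Genes without overlap cannot change sign when a library is left out or the pseudocount changes, so this adds no support.

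The 28 early calls that recurred in the same direction were 16 with a pseudocount of 0.1, 43 with upper-quartile scaling, 67 with quantile normalization, 17 with group weights and 4 to 126 with 1 library left out. Genes whose difference changed by 18 DAP (4) were 8 without a filter, 19 with quantile normalization and 4 to 11 with 1 library left out, and by 26 DAP (610) they were 334 to 841 with 1 library left out.

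Replicate numbers are shared between genotypes, but same-numbered libraries at 10 DAP did not deviate together (r -0.249 to 0.0678, 0 of 3 pairs over 0.1), so the numbers were not taken as pairs. Over all ages r ran from -0.433 to 0.294, with 4 of 15 pairs over 0.1. With the replicate block 25 genes were called (10 higher, 15 lower), 6 early calls recurred, and 1 gene changed by 18 DAP and 174 by 26 DAP.

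The LHY difference (Cla97C06G111640) ran from -0.19 without clnor replicate 3 to 1.12 without clnor replicate 2. TPM keeps no depth, so how far low values limit these calls is unknown.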
